A study of Mus musculus with 38 samples.

Results

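Myt1 and St18 are neural zinc-finger transcription factors of the Myt1 family, and their transcripts were followed here through retinoic acid treatment of Neuro2A cells, a mouse neuroblastoma line that can be driven towards a neuron-like state. The members were the probes that the platform annotation names Myt1 (probe 74) and St18 (probe 213), 2 of the 473 named probes on an array with 103 further probes that are unnamed here. Each gene had 1 probe. The third member of the family, Myt1l (probe 204), is also on the array and is described beside them.

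The series measured polyadenylated RNA on 38 single-colour arrays. Treated cells had been moved, after 48 h of preculture in 10% serum, to 2% serum with 20 uM all-trans-retinoic acid for 1 h or 3 h (5 arrays each) or for 6, 12 or 24 h (7 arrays each). The control was harvested at the end of the preculture, at 0 h, still in 10% serum and without retinoic acid (7 arrays). Neuro2A is 1 tumour line, each replicate pooled 4 to 6 plates, and the labels name neither a vehicle control nor a change of medium without retinoic acid, so these cannot be told apart from the treatment in any comparison with 0 h. The labels give no separate cultures for the replicates beyond the plates, so p-values measure the spread between these arrays, which may be technical.

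Myt1-family proteins bind DNA through clusters of zinc fingers of the CCHHC type, whose core target is the sequence AAGTT, and are known mostly as repressors that recruit Sin3 and histone deacetylases. In the developing nervous system of mouse and frog they promote neuronal differentiation and oppose Notch signalling. Myt1 was first described in oligodendrocyte progenitors as a binder of the proteolipid protein gene, St18 is expressed in neurons and in the pancreatic islet, and Myt1l is expressed in neurons.

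RefSeq (GRCm38.p6) places Myt1 on chromosome 2, St18 on chromosome 1 and Myt1l on chromosome 12. For St18 the RefSeq promoter table holds 0 annotated starts, and for Myt1 it holds 3. The 250 bases upstream of these 3 are shown because Myt1, a member with no array at the floor, carries the family's own core motif before each of them. Capitals mark AAGTT or its reverse complement AACTT, and every window is on the plus strand.
Myt1 window A (chr2:181763082-181763331): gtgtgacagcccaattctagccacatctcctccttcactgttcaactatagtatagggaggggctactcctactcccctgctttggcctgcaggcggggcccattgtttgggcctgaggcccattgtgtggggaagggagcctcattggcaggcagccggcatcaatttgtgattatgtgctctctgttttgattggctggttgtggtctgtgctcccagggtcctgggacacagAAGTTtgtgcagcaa
Myt1 window B (chr2:181766779-181767028): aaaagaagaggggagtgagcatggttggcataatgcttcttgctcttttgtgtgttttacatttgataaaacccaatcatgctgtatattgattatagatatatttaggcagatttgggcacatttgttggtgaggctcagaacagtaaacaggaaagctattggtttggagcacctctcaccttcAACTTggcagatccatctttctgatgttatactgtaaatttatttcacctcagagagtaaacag
Myt1 window C (chr2:181796057-181796306): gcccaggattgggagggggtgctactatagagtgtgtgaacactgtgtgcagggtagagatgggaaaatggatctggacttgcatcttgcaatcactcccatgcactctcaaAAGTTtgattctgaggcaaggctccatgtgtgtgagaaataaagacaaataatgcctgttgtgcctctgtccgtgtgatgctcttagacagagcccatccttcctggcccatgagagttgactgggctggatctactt
Of the 5 Myt1l windows, 2 hold AAGTT in either orientation and 1 holds AGGTCA. In the Myt1 windows the motif lies 15 bases before the start in window A, 64 in window B and 138 in window C. Either orientation of AAGTT occurs in 35.3% of all 32841 promoter windows of this length, so its presence is a description of these windows only. The nuclear receptor half-site AGGTCA, searched on both strands because retinoic acid receptors bind such half-sites, occurs in 4607 of the 32841 windows and has 0 matches in the 3 Myt1 windows. With no half-site in these windows the 2 motifs do not overlap there, and the arrays measured transcripts, not binding.

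On every array a deposited value of 1 falls near the same rank, from which a scaling of the arrays before deposit was inferred, and 30 arrays share a lowest value of 0.54, called the floor here, at which a probe has only an upper limit. Normalised values below are log2 of the deposited intensity after quantile normalisation over the 38 arrays. Arrays correlated with the others at a median rank correlation under 0.7 in 5 cases (replicate 1 at 1, 3 and 24 h, replicate 3 at 6 h and replicate 5 at 12 h), and the 33 kept in an additional analysis were at 0.739 or higher. The range of the arrays also narrowed: the interquartile range of log2 deposited values averaged 1.56, 1.64, 1.14, 1.13 and 0.88 at 1, 3, 6, 12 and 24 h, against 1.51 in the controls. Of 26 markers of neuroblasts and neurons the named probes covered 1, Nefh, the heavy neurofilament chain, and they covered 0 of 15 oligodendrocyte, 0 of 7 astrocyte and 0 of 5 blood and endothelial markers. The identity of the cells can therefore not be established from these probes. The Nefh probe lay at a median rank of 60.5 and was at the floor on 0 arrays. Nefh differed by -0.31 ± 0.16 (SE) at 24 h, with an adjusted p of 0.565 by limma. Of 11 stromal and matrix markers 2 were measured, Pxdn (-0.27 at 24 h) and Phldb1 (-0.20), and neither passed.

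Myt1 was measured above the floor on all 38 arrays. Its deposited intensity lay between 1.08 and 3.41 with a median of 1.49, and its rank from the brightest probe lay between 18 and 240 of all probes with a median of 119.5. The deposited intensity of St18 lay between 0.54 and 1.03 with a median of 0.733, at ranks of 253 to 508 with a median of 366. It was below 1 on 37 of 38 arrays and at the floor on 4, which were replicates 2 and 3 at 3 h and replicates 1 and 6 at 12 h. Myt1l ranged from 0.695 to 2.11 with a median of 0.990 and was never at the floor. Each rank describes one probe among the probes of its array. It does not compare the amounts of the transcripts, because probes differ in how well they hybridise, and in a bulk RNA sample fewer cells expressing a gene and less RNA per cell cannot be told apart.

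The first comparison asked how Myt1 moved over the course. At 3 h its 5 arrays read 1.42, 3.16, 3.01, 3.38 and 3.10 in deposited intensity, against a lowest value of 1.08, a median of 1.16 and a highest of 2.51 on the 7 control arrays. Replicates 2 to 5 at 3 h were all above the brightest control, and replicate 1 fell inside the control range. At 1 h the Myt1 intensities were 1.24, 2.21, 2.36, 1.36 and 1.39, all within the control range. The 6 h arrays ran from 1.14 to 3.41 with a median of 1.88, the 12 h arrays from 1.13 to 2.76 with a median of 1.34, and the 24 h arrays from 1.11 to 2.26 with a median of 1.46. Every time overlapped the controls in these intensities.

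On the normalised log2 scale the Myt1 level averaged 0.58 ± 0.26 and 1.08 ± 0.36 after 1 and 3 h (SD, n = 5 each) and 0.96 ± 0.52, 0.77 ± 0.33 and 0.74 ± 0.31 after 6, 12 and 24 h (n = 7 each), against 0.38 ± 0.31 in the controls (n = 7). The mean was highest at 3 h and lower again later, without returning to the control mean. Its place in time was not fixed: the difference from the controls was larger at 6 h than at 3 h with the array range as a covariate (0.71 and 0.65) and without the 8 arrays that never reach the floor (0.80 and 0.76). Normalised values lay above the control mean on 4 of 5 and 5 of 5 arrays after 1 and 3 h, on 7 of 7 after 6 h, and on 6 of 7 after both 12 and 24 h. They lay above the highest control on 4 arrays at 3 h and on 2 at each of 6, 12 and 24 h. By rank, Myt1 averaged place 78.6 at 3 h and 120 at 24 h, against 183 in the controls.

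None of these differences passed an adjusted p of 0.05 in limma, which fitted all probes of the array together. Myt1 was 0.70 ± 0.21 higher on the log2 scale at 3 h (SE), a fold of 1.62 with a 95% interval of 0.27 to 1.12 on the log2 scale. Its unadjusted p was 0.0022, place 2 among all probes, and its adjusted p was 0.528. No probe of the array (0%) passed at 3 h after adjustment, while 31 (5.38%) had an unadjusted p under 0.05. At 6 h Myt1 differed by 0.58 ± 0.19, with an unadjusted p of 0.0046 (place 5) and an adjusted p of 0.402, where 1 probe (0.174%) passed. After 1, 12 and 24 h the Myt1 differences were 0.20 ± 0.21, 0.39 ± 0.19 and 0.36 ± 0.19, with adjusted p of 0.988, 0.994 and 0.565. The probes passing after adjustment were 0% of the array after 1 h, 0% after 12 h and 1.04% after 24 h, and those with an unadjusted p under 0.05 were 1.39% after 1 h, 5.73% after 6 h, 3.99% after 12 h and 6.77% after 24 h.

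Replicate 1 at 3 h weighed on the Myt1 value. It is the array inside the control range and is among the 5 of low correlation with the others. Without it alone, Myt1 at 3 h was 0.86 higher with an adjusted p of 0.177 in limma. Without those 5 arrays, an analysis added after seeing the data, Myt1 at 3 h was 0.88 higher with an adjusted p of 0.0178 in limma, and it was then the 1 probe (0.174%) that passed. All 5 were treated arrays, while control replicate 1, at a median rank correlation of 0.742, was kept. With array quality weights, which limma estimates from the residuals and which gave replicate 1 at 3 h a weight of 0.285, the difference was 0.78 with an adjusted p of 0.00217, and 15 probes (2.6%) passed. Over all single omissions the 3 h value lay between 0.64 and 0.86, with adjusted p of 0.125 to 0.992. Both settings that passed give less weight to an array because it differs from the others, and Myt1 is one of the probes in which it differs.

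**Figure D1:**
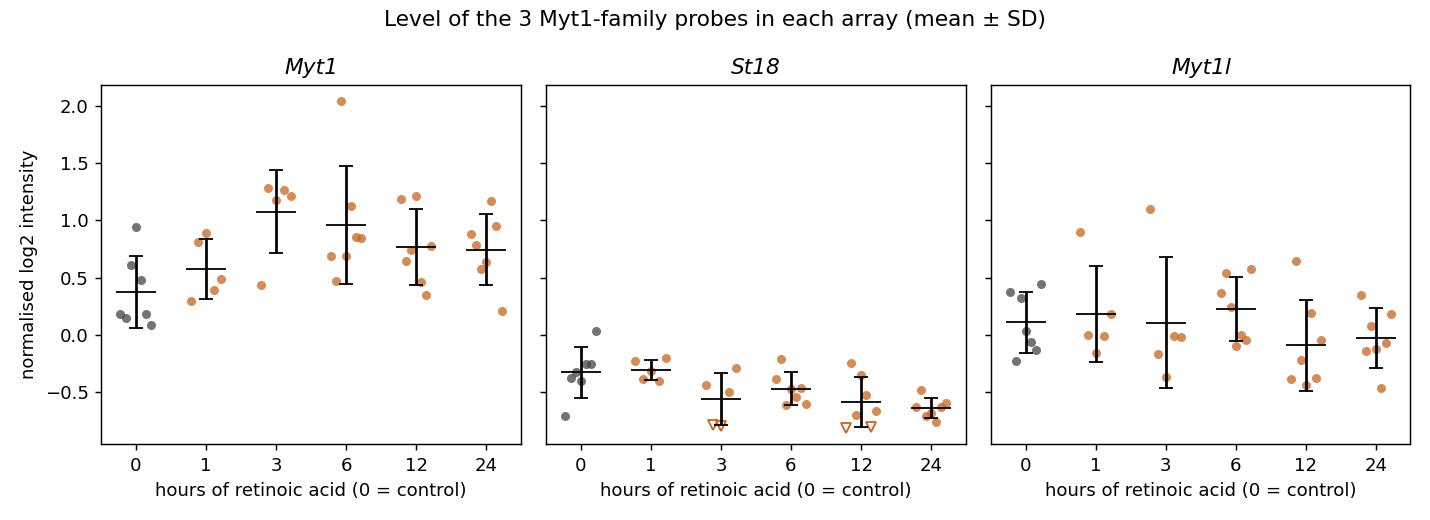
Normalised log2 intensity (vertical axis) of Myt1, St18 and Myt1l on each array by hours of retinoic acid (horizontal axis), with the 0 h controls in grey, treated arrays in orange, open triangles for arrays where the probe is at the floor, and bars for mean ± SD. The Myt1 mean is highest at 3 h (1.08) with 1 array at 0.44, the St18 mean is lowest at 24 h (-0.64), and every treated group overlaps the controls.

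From 3 h on, the mean of St18 lay below that of the controls on the normalised scale. At 3 h its deposited intensities were 0.742, 0.54, 0.54, 0.607 and 0.752, against a lowest value of 0.604, a median of 0.791 and a highest of 1.03 in the controls. The 2 arrays at 0.54 are at the floor. The 24 h arrays ran from 0.612 to 0.840 with a median of 0.744. At 1 h the St18 intensities were 0.841, 0.637, 0.698, 0.738 and 0.890, and those at 6 h ran from 0.616 to 0.963 with a median of 0.70. The 12 h arrays ran from 0.54 to 0.964 with a median of 0.721. In deposited intensity St18 therefore overlapped the controls at every time, with none of the 24 h arrays below the lowest control.

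The normalised log2 level of St18 averaged -0.30 ± 0.09 and -0.56 ± 0.22 after 1 and 3 h (SD, n = 5 each) and -0.47 ± 0.14, -0.58 ± 0.22 and -0.64 ± 0.09 after 6, 12 and 24 h (n = 7 each), against -0.33 ± 0.22 in the controls (n = 7). All 7 arrays at 24 h lay below the control mean, and 1 lay below the lowest control, which was itself at -0.71. Below the control mean were also 2 of 5 and 4 of 5 arrays after 1 and 3 h and 6 of 7 after both 6 and 12 h. The spread of St18 within groups (SD 0.18) was smaller than that of Myt1 (SD 0.36) and of the median probe (SD 0.35). Values held at a floor cannot vary below it. The SD was 0.22 at both 3 and 12 h, the times with arrays at the floor, and 0.09 to 0.22 in the groups with none. Whether the floor narrowed the spread was not tested.

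St18 did not pass the test at any time. At 24 h it differed from the controls by -0.31 ± 0.09 on the log2 scale (SE), a ratio of 0.805, with a 95% interval of -0.50 to -0.12. Its unadjusted p was 0.0020, the third smallest among the lower probes, and its adjusted p by limma was 0.127. The differences at 1, 3, 6 and 12 h were 0.02, -0.23, -0.14 and -0.26, with adjusted p of 0.988, 0.844, 0.791 and 0.865. St18 is at the floor on 2 arrays at 3 h and on 2 at 12 h. Quantile normalisation gives the probes tied at the floor of an array the value of their mean rank. The normalised St18 levels and differences at those times, and Myt1 minus St18, are therefore uncertain in either direction. Testing all treated times at once against 0 h, limma's F test gave adjusted p of 0.368 for St18 and 0.566 for Myt1, where 6 probes (1.04%) passed and 6.42% had an unadjusted p under 0.05. Late minus early, which sets the mean level after 12 and 24 h against that after 1 and 3 h, was -0.18 ± 0.07 for St18 with an adjusted p of 0.319 and -0.07 ± 0.15 for Myt1 with an adjusted p of 0.871, and 2 probes (0.347%) passed that contrast, with 13.5% at an unadjusted p under 0.05.

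A single control array weighed on the St18 value. Without replicate 1 of the controls, the lowest control for St18, the 24 h difference was -0.38 and passed with an adjusted p of 0.0163 in limma, and 10 probes (1.74%) did so. The other 37 single omissions left it short of the threshold, and over all 38 it ranged from -0.38 to -0.25. St18 at 24 h also passed with trend and robust variances (adjusted p of 0.0378, where 10.9% of probes passed) and with array quality weights (difference of -0.33, adjusted p of 0.0383, where 1.56% passed).

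The later values also depended on how arrays were scaled, for both genes. As deposited, with no normalisation, Myt1 differed from the controls by 0.07 and St18 by -0.05 at 24 h. With each array centred on its median the differences were 0.01 for Myt1 and -0.11 for St18. At 12 h the same 2 scalings gave 0.23 and 0.20 for Myt1 and -0.12 and -0.15 for St18, and at 6 h they gave 0.41 and 0.39 for Myt1 and -0.041 and -0.067 for St18. Under them Myt1 at 3 h differed by 0.95 and 0.97, more than after quantile normalisation. The Myt1 difference at 3 h was thus of similar or larger size in all 3 scalings, though past the threshold in none of them. The 2 scalings without quantile normalisation keep the range of the arrays, which averaged 1.64 at 3 h and 1.51 in the controls. Its part in the larger values was not tested. Of the 3 scalings, the quantile normalisation gave the largest differences at 24 h for both genes.

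**Figure D2:**
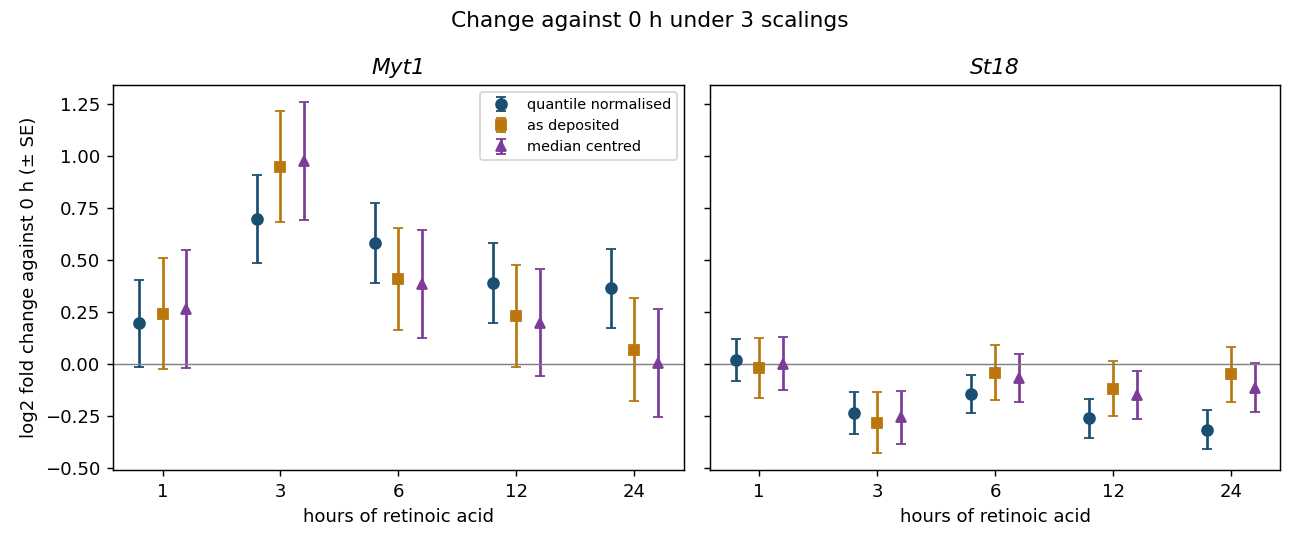
Log2 fold change against 0 h with its SE (vertical axis) of Myt1 and St18 at 1, 3, 6, 12 and 24 h of retinoic acid (horizontal axis), for quantile-normalised, deposited and median-centred values. At 3 h Myt1 is at 0.70, 0.95 and 0.97 in the 3 scalings, while at 24 h it is at 0.36, 0.07 and 0.01.

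The deposited levels of both genes moved with the range of the array. Over the 38 arrays the deposited log2 level of Myt1 correlated with the interquartile range at Pearson r = 0.50 (permutation p = 0.00142, Spearman rho = 0.49), and at 0.44 without the 2 arrays of most extreme range. St18 did so at r = -0.52 (permutation p = 0.00081, rho = -0.46), and at -0.38 without those 2. Both Benjamini-Hochberg adjusted p over the 6 relations computed were 0.00426. Within groups, with group means removed, the same r was 0.58 for Myt1 and -0.66 for St18. After quantile normalisation the r was 0.11 for Myt1 and 0.13 for St18. A brighter-ranking probe such as Myt1 thus read higher on arrays of wide range, and a dimmer-ranking probe such as St18 read lower. A value of 1 lies near the same rank on every array, with Myt1 above it on all 38 and St18 below it on 37. The signs were therefore largely fixed in advance, and the p-values are no separate evidence about either gene.

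**Figure D3:**
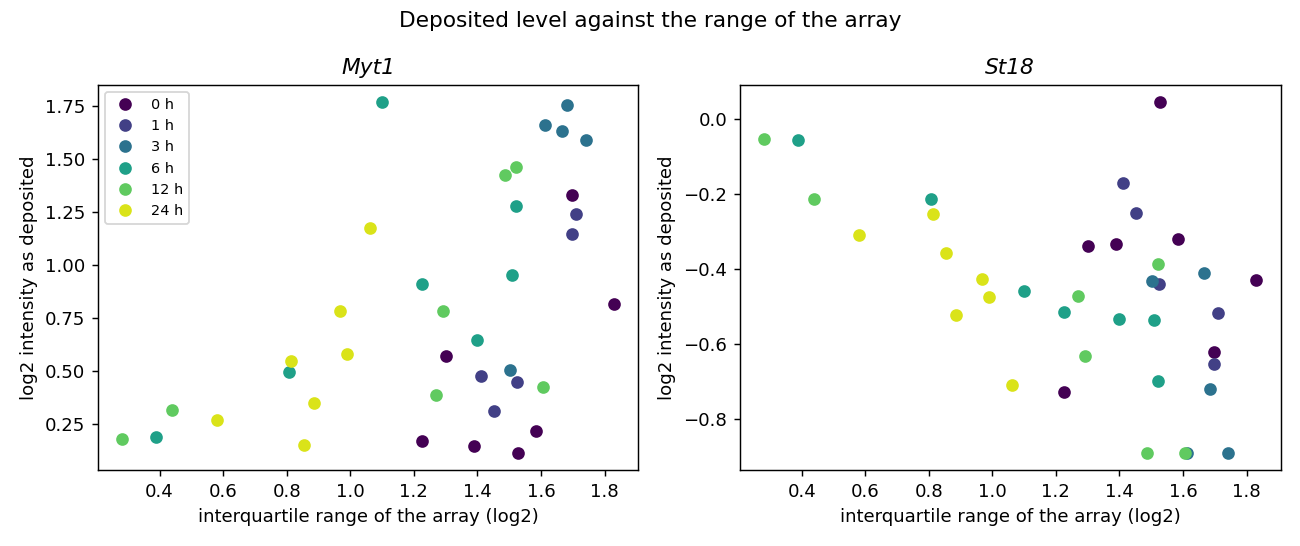
Deposited log2 intensity of Myt1 and of St18 (vertical axis) against the interquartile range of log2 values of the same array (horizontal axis), 1 point per array, coloured by hours of retinoic acid. Over all arrays Myt1 reads higher (r = 0.50) and St18 lower (r = -0.52) at wider ranges, and the 24 h arrays lie at the narrow end, with an average range of 0.88 against 1.51 in the controls.

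Whether the 2 genes moved unequally was asked within each array, as the normalised log2 level of Myt1 minus that of St18. This difference averaged 0.88 ± 0.31, 1.64 ± 0.48, 1.43 ± 0.62, 1.35 ± 0.38 and 1.38 ± 0.34 after 1, 3, 6, 12 and 24 h, against 0.70 ± 0.41 in the controls (SD, n as above). At 24 h it was 0.68 above the controls, with all 7 arrays above the control mean and 3 above the highest control (two-sided exact permutation test over 3432 divisions of the arrays, p = 0.00816, and 0.0163 adjusted over the 2 such tests). Late minus early gave 0.11 (permutation test with 100000 resamples, p = 0.556). As deposited or median centred, which leave the same within-array difference, the 24 h value was 0.12 with an exact permutation p of 0.692. The opposite signs of the 2 genes at 24 h were known when this test was chosen. It is therefore no independent evidence of their direction or of an unequal change. The same difference was not computed for other pairs of probes, so no share over all pairs stands beside it.

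**Figure D4:**
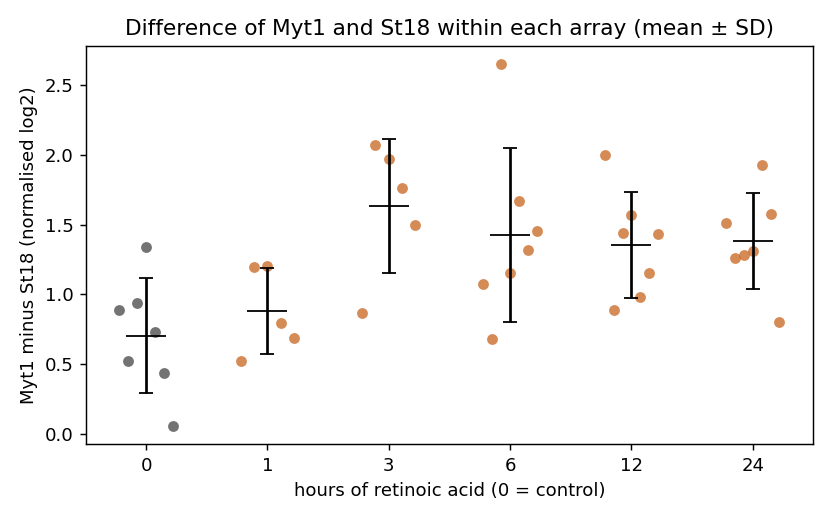
Normalised log2 level of Myt1 minus that of St18 within each array (vertical axis) by hours of retinoic acid (horizontal axis), with controls in grey, treated arrays in orange and bars for mean ± SD. The mean is 1.38 at 24 h and 0.70 in the controls, and the highest control (1.34) lies above 4 of the 7 arrays at 24 h.

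Ordered by mean normalised level, Myt1 ran 3, 6, 12, 24, 1 and 0 h from high to low, and St18 ran 1, 0, 6, 3, 12 and 24 h. No pair of neighbours in either order differed beyond its spread, with adjusted p in limma of 0.791 to 0.988. Neighbours in the order of St18 differed by at most 0.14 in size, and those in the order of Myt1 by at most 0.20.

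Myt1l, the third family member, had no unadjusted p under 0.05 in limma at any time against 0 h, the smallest being 0.309 at 12 h. It averaged 0.18 ± 0.42, 0.11 ± 0.57, 0.23 ± 0.28, -0.09 ± 0.40 and -0.03 ± 0.26 at 1, 3, 6, 12 and 24 h on the normalised log2 scale, against 0.11 ± 0.27 in the controls (SD, n as above). At 24 h it differed by -0.14 ± 0.19 with a 95% interval of -0.53 to 0.26 and an adjusted p of 0.767 in limma, and the interval includes the St18 difference of -0.31. Over the 38 arrays the normalised level of Myt1l correlated with St18 at r = 0.42 and with Myt1 at r = -0.33, and Myt1 with St18 at r = -0.38. These 3 values share the arrays and their normalisation and are descriptions.

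The named probes most like Myt1 over the 38 arrays, among 449 candidates, were Greb1 (r = 0.80), Mbtps1 (0.79), Setd1b (0.76), Smarcad1 (0.70) and Macf1 (0.69). Greb1 is best known as an oestrogen-responsive gene of breast cells in human, Mbtps1 encodes the site-1 protease that activates the sterol-sensing SREBP factors, and Macf1 encodes a linker of microtubules and actin. Setd1b is a histone H3 lysine methyltransferase subunit and Smarcad1 a chromatin remodelling ATPase. Over the 6 group means the r with Myt1 was 0.95 for Greb1, 0.70 for Mbtps1, 0.78 for Setd1b, 0.52 for Smarcad1 and 0.42 for Macf1. Within groups, with group means removed, it was 0.76, 0.87, 0.77, 0.80 and 0.80 in the same order. The likeness thus also held between arrays of the same time. Greb1 differed by 0.47 at 3 h and by 0.38 ± 0.19 at 24 h with an adjusted p of 0.565 in limma. Mbtps1, Setd1b, Smarcad1 and Macf1 differed by 0.26, 0.52, 0.62 and 0.57 at 3 h. At 24 h they differed by -0.08, -0.002, 0.08 and 0.12. For St18 the closest were Dscaml1 (r = 0.68), a neuronal adhesion molecule, Bend3 (0.66), a BEN-domain transcriptional repressor, Focad (0.57), Itprid2 (0.54) and Lrrc7 (0.52), a protein of the postsynaptic density. Within groups their r with St18 was 0.71, 0.72, 0.66, 0.64 and 0.59. None of these 5 differed at 24 h by more than 0.15 in size. As all points share the arrays and their normalisation, the correlations are descriptions.

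Co-repressor and chromatin factors of the family and of related neural repressors, called repressor partners here, were sparsely covered by the array. A place on this list does not make a gene a partner of Myt1 or St18. Of 73 co-repressor and chromatin partners 7 were measured, 5 with a positive and 2 with a negative difference at 24 h and 0 past the threshold, against 1.04% of all probes, with a median of 0.03 against -0.01 over all probes. An unadjusted p under 0.05 was found for 1 of the 7, against 6.77% of all probes. Tle3, a Groucho co-repressor, was at 0.94 ± 0.27 with an adjusted p of 0.0988 in limma. Rere, a deacetylase-recruiting atrophin that is also a cofactor of retinoic acid signalling, was at 0.30 ± 0.23, Hdac5, a class II histone deacetylase, at 0.18 ± 0.23, and Setdb1, a histone H3 lysine methyltransferase, at -0.21 ± 0.27, with adjusted p of 0.585, 0.751 and 0.750. The other 3 measured partners are in the plot of list members.

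Of 62 Notch pathway genes 2 were measured, and 0 passed. Spen, a co-repressor of the Notch effector Rbpj, differed by -0.19 ± 0.24 and Nedd4, a ubiquitin ligase, by -0.06 ± 0.19 at 24 h. The Notch target genes of the Hes and Hey families on the list had no named probe. Of 114 neural transcription factors 12 were measured, with Myt1l, at -0.14, as 1 of them, 8 with a positive and 4 with a negative difference at 24 h and 0 past the threshold in limma, against 1.04% of all probes. An unadjusted p under 0.05 was found for 1 of the 12, against 6.77% of all probes, and the median was 0.03 against -0.01 over all probes. Camta2, a calmodulin-binding transcription activator, differed by -0.38 ± 0.17 and its relative Camta1 by 0.21 ± 0.15. Zhx3, a zinc-finger and homeobox repressor, differed by 0.42 ± 0.23. Zfp423, a zinc-finger factor known as a cofactor of retinoic acid receptors in human neuroblastoma, differed by -0.28 ± 0.17. The adjusted p of these 4 were 0.565 to 0.574.

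**Figure D5:**
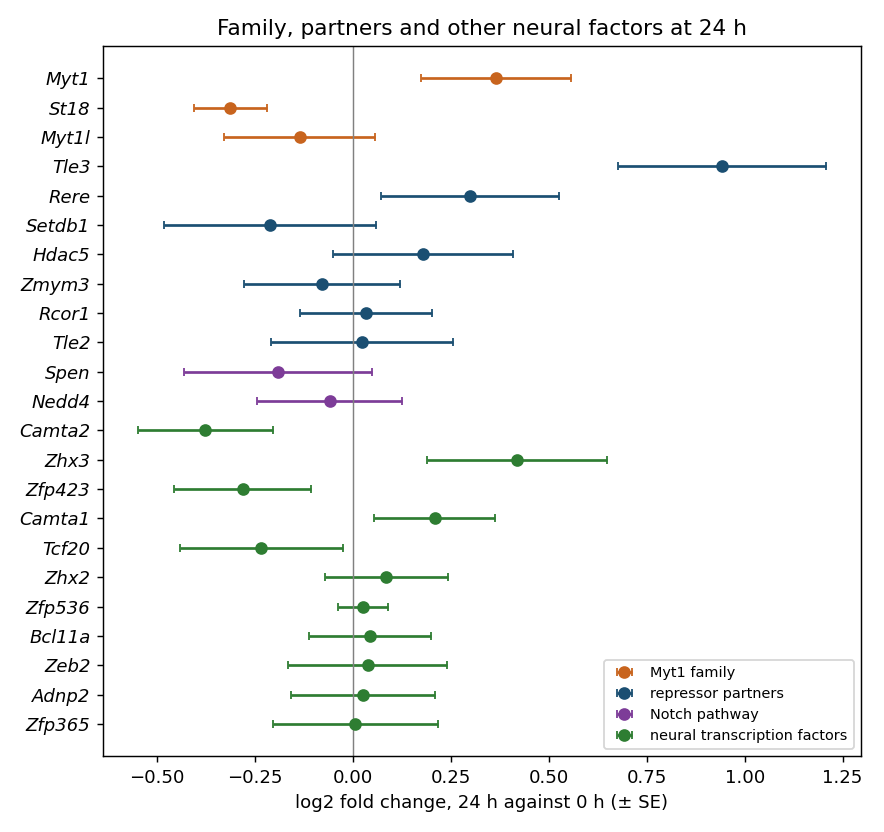
Log2 fold change at 24 h against 0 h (horizontal axis) with its SE for the 3 family members and the measured repressor partners, Notch pathway genes and neural transcription factors (rows). Myt1 lies at 0.36, St18 at -0.31 and Tle3 at 0.94, and none of the genes drawn passes the threshold.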

How the data were processed

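Per the labels' protocols, Cy5-labelled cDNA of polyadenylated RNA was hybridised to mKIAA oligonucleotide arrays, with an FLA-8000 scanner and Phoretix used to read spot intensities. The authors deposited linear intensity values for 473 named and 103 unnamed probes on 38 arrays. Their background correction, scaling and floor are not given in the sources used here. No spot background or detection value was used, so a low signal such as that of St18 could not be told from background. The number of arrays limits the precision. Of 473 named probes, 472 gene identifiers were found in the RefSeq table (GRCm38.p6), and 0 symbols changed.

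Values were taken to log2, quantile normalised and fitted on all arrays, with the group as the factor, using limma 3.58.1 under R 4.3.3 (32 residual degrees of freedom), and p-values were adjusted by Benjamini-Hochberg over all probes of a contrast. The procedure was tested on simulated data. Within-array differences used permutation tests written with numpy 2.4.6, exact at 24 h and with 100000 resamples for late minus early. Alternatives changed the scaling, offset, dim-probe filter (99 probes left out), samples, variances, weights, range, floor, replicate block and single arrays. Genes named besides the members were the 5 most correlated named probes of each member and the 4 smallest p at 24 h of each list. Members and lists were chosen with earlier results of these data known.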

Additional observations from a re-analysis of the deposited data

Results flagged for a closer look

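Of 24 groups checked for a single array standing apart from the others of its group, 3 held one, and chance gives about 1 in 20 groups. Myt1 at 3 h was lowest on replicate 1, at 0.44 on the normalised log2 scale, with the nearest of the other arrays at 1.18. Myt1 at 6 h was highest on replicate 3, at 2.04, with the nearest at 1.13. Myt1l at 3 h was highest on replicate 1, at 1.10, with the nearest at -0.01. All 3 values come from 2 of the 5 arrays of low correlation with the rest, so Myt1 and Myt1l stood apart in opposite directions on 1 array at 3 h. St18 held no such array at any time.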

How the results depend on the processing

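Results for Myt1, St18 and their difference kept direction under all settings tried, apart from late minus early of all of them and St18 at 1 h. With no normalisation after deposit the St18 difference at 1 h was -0.0165 and its late minus early 0.066, and Myt1 minus St18 was 0.12 at 24 h, no longer past the threshold, and -0.51 for late minus early, as it was with median centring (0.12 and -0.51). Myt1 late minus early, -0.07, was 0.13 with the array range as a covariate and 0.023 without the 8 arrays that never reach the floor. It moved furthest with no normalisation after deposit (-0.45, adjusted p of 0.0973 in limma) and with median centring (-0.52, adjusted p of 0.0765). Array quality weights gave -0.055 for St18 at 1 h and brought 5 results past the threshold. These were Myt1 at 3 h (0.78), its F test (5.79), St18 at 3 h (-0.34), at 24 h (-0.33) and its F test (5.64). With these weights 34 probes passed the F test, against 6 without them, so Myt1 and St18 were among many more probes that passed. St18 at 24 h, -0.31, also passed with trend and robust variances (adjusted p of 0.0378) and by an exact permutation test without adjustment (p = 0.00583). Without the 5 arrays of low correlation, chosen after seeing the data, Myt1 at 3 h was 0.88 and passed, St18 at 1 h was -0.0011 and late minus early of Myt1 minus St18 was -0.019. The causes were not tested.

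Leaving out single arrays gave -0.38 to -0.25 for St18 at 24 h and -0.042 to 0.080 for St18 at 1 h, where the sign turned without control replicate 1 or replicate 5 at 1 h. The number of probes called was 6 at 24 h (2 to 63 over the settings), 2 for late minus early (1 to 166) and 6 for the F test (2 to 62), and over single omissions it was 4 to 10, 1 to 12 and 4 to 8.

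Replicate numbers are shared by the groups. Taken over all numbers they did not pair the treated arrays with the controls, since each treated time had pairs under 0.1. All 5 pairs of 1 h with 3 h arrays correlated, at 0.20 to 0.82. Replicate 1 stood apart. Its control array correlated with replicate 1 at 0.59, 0.58, 0.24, 0.31 and 0.46 after 1, 3, 6, 12 and 24 h. The cause was not tested. Over 87 pairs of arrays with the same number the median correlation of deviations was 0.05 (-0.53 to 0.82), 35 were over 0.1, and 10 of 38 arrays correlated best with their own number. With the replicate block Myt1 was 0.63 at 3 h and 0.36 at 24 h and St18 -0.31 at 24 h, none past the threshold, Myt1 late minus early was 0.0017, and 8 probes were called for late minus early in place of 2. Paired differences of Myt1 minus St18 at 24 h averaged 0.68 (exact sign-flip test over 128 sign patterns, p = 0.0312).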
